A study of Mus musculus with 28 samples.

Results

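Agt-positive astrocytes outside the Crym group were single cells, 1 per well, from the subependymal zone (SEZ) of adult mice, where new neurons arise beside the lateral ventricle, chosen by their own transcripts. A well was taken with at least 1000 estimated transcripts outside the ERCC spike-ins and at least 30 per 10000 of them from the astroglial genes Slc1a2, Slc1a3, Aldoc, Clu and Aqp4 together. It also needed at least 2 transcripts of Agt, with Crym and Thbs4 below 2 each. The rule took 60 wells out of 762 wells inside the astroglial gate, 1789 wells above the transcript minimum and 2688 wells in all. They were set against 599 Agt-zero wells, which passed the same gate with no Agt transcript. The levels of these 8 genes chose the wells, and those of Etnppl, Igsf1, Foxb1 and Fzd10 chose the name. All 12 are therefore described, and no test result of theirs is reported.

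Agt encodes angiotensinogen, the secreted protein from which renin and then angiotensin-converting enzyme cut the angiotensin peptides. In the brain it is made mostly by astrocytes, and more by those of the diencephalon and brainstem than by those of the cortex and striatum. Slc1a2 and Slc1a3 clear glutamate, Aqp4 is the water channel of astrocyte end-feet, and astroglial cells of the SEZ include both neural stem cells (NSCs) and astrocytes that do not divide. The gene lies on chromosome 8 of mm10, from 124556534 to 124569706 on the minus strand. The start of the gene that gives the cells their name is shown here with 2 short motifs in capitals, TATAAA and the nuclear factor I core TTGGC, both searched on both strands. RefSeq (GRCm38.p6) gives this stretch of 250 bases before to 50 after the start as chr8:124569657-124569956 on the minus strand, 5′ to 3′.
Agt: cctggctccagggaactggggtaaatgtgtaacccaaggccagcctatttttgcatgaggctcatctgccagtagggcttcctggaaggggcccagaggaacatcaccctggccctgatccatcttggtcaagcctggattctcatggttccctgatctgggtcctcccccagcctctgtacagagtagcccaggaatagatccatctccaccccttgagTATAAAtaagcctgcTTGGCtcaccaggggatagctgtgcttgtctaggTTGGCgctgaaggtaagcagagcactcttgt
TATAAA began 30 bases before the start, and TTGGC began 15 bases before and 19 bases after it. Of 32851 promoter windows of this length, 13.6% held TATAAA or its complement and 46.7% held TTGGC or its complement, so the second is a common string.

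The 28 libraries were 7 sorts of 4 libraries with 96 wells each, all from Bl/6 mice, processed by SORT-seq, which sorts 1 cell per well and amplifies its RNA by in vitro transcription. Day-60 tdTomato cells came from mice with an inducible Cre in 1 copy of Ki67 and a tdTomato reporter in 1 copy of Rosa, 60 days after a single injection of 5 mg tamoxifen, at 16 to 19 weeks of age. The mixed day-60 sort used the same line and added olfactory bulb tdTomato cells and cells bound by an antibody to the oligodendrocyte antigen O4, from mice of 8 to 19 weeks. The other sorts came from mice of 8 to 10 weeks: day-2 tdTomato cells of that line, Ki67-RFP cells with a tagRFP in both copies of Ki67, Prom1/CD24 cells sorted with 2 antibodies, GLAST/EGF cells that bound an antibody to GLAST and/or labelled EGF, and Troy-GFP cells. Troy-GFP mice carried GFP and Cre in 1 copy of Troy (Tnfrsf19), a receptor gene that the study uses to mark NSCs. The tdTomato label depends on Ki67 having been on at the injection, so it marks descendants of dividing cells. How many mice stand behind a library is not in the labels, and 4 libraries make up 1 sort, so the spread behind the p-values can be technical.

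Libraries held 11 to 89 wells above the transcript minimum and 43149 to 572793 transcripts in them. Agt-positive wells had a median of 4527 transcripts (2010 to 8649) and 2152 genes, against 5126 transcripts and 2428 genes in Agt-zero wells. The gate value had a median of 189 per 10000 in Agt-positive wells and 248 per 10000 in Agt-zero wells. The same 96 well barcodes were used in every library, and 0 pairs of wells held identical values. Wells of different sorts differ in mouse line, sex, age and label, which cannot be told apart here. Y-linked transcripts put the Troy-GFP and GLAST/EGF libraries as male and the other sorts as female.

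Agt-positive wells came from 5 of the 7 sorts. They numbered 22 in the day-60 tdTomato sort, 4 in the mixed day-60 sort, 3 in the Prom1/CD24 sort, 14 in the GLAST/EGF sort and 17 in the Troy-GFP sort. The Ki67-RFP and day-2 tdTomato sorts gave 0 of 8 and 0 of 7 gate wells, which allows shares of up to 37.5% and 42.9%. Over all sorts they were 7.87% of gate wells (exact 95% binomial interval 6.06% to 10.0%, counting error only).

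In the 4 libraries of the day-60 tdTomato sort, 10.1%, 5.48%, 2.70% and 10.8% of gate wells were Agt-positive. The GLAST/EGF libraries held 11.8%, 3.85%, 7.14% and 16.7%, and the Troy-GFP libraries 10.3%, 3.23%, 10.9% and 2.99%. The 3 sorts overlapped, and libraries of 1 sort differed widely. The shares averaged 7.28% ± 3.86 (SD) in day-60 tdTomato, 9.86% ± 5.58 in GLAST/EGF and 6.85% ± 4.34 in Troy-GFP libraries. Day-60 tdTomato minus Troy-GFP came to 0.426 percentage points (exact 2-sided permutation p = 0.943, n = 4 each, smallest possible p 0.0286), and to 0.333 points between the libraries run on flow cell HVJH2BGXX alone. GLAST/EGF minus Troy-GFP came to 3.00 points (exact permutation p = 0.429) and day-60 tdTomato minus GLAST/EGF to -2.58 points (exact permutation p = 0.486). Adjusted over these 3 pairs, p was 0.943, 0.729 and 0.729. No pair of sorts was shown to differ, and the SD between libraries exceeded every gap between sorts.

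**Figure D1:**
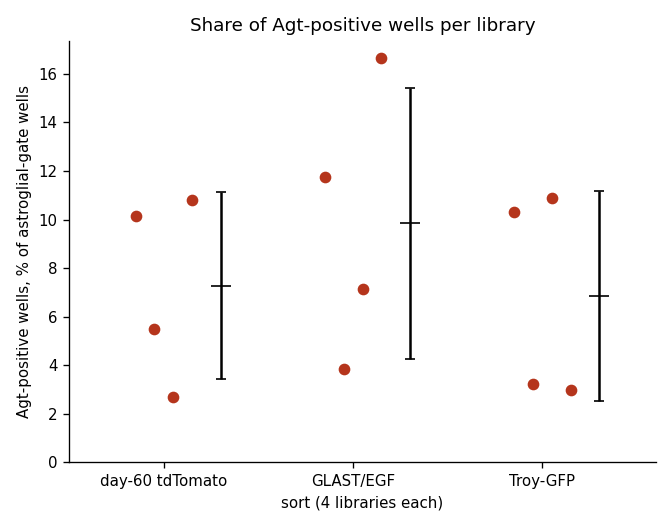
Share of astroglial-gate wells that were Agt-positive, in percent (vertical axis), in each of the 4 libraries of 3 sorts (points), with the mean and SD beside them (dash and bar). The 3 sets of points overlap, around means of 7.28%, 9.86% and 6.85%.

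Agt itself ranged widely among the 60 wells: 22 wells had 2 observed molecules, 9 had 3, 4 had 4, 6 had 5 and 19 had 6 or more. The median was 3.02 transcripts and the highest well held 17.6. Outside the gate, 7 of 1027 wells (0.682%) held any Agt at a median depth of 5333 transcripts, so Agt was rare in cells that should lack it. At the edge of the rule, 89 gate wells held exactly 1 Agt molecule and entered neither side. A further 11 gate wells with Agt of 2 or more were left out for Crym and 3 for Thbs4.

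Etnppl, which encodes the enzyme that breaks down phosphoethanolamine, was the most frequent of the naming markers. It had a transcript in 36 of 60 Agt-positive wells (60.0%, exact 95% interval 46.5% to 72.4%), against 113 of 599 Agt-zero wells (18.9%, 15.8% to 22.2%) and 11 of 1027 wells outside the gate (1.07%). Igsf1, an immunoglobulin-family membrane protein, was found in 22 (36.7%) of the Agt-positive and 25 (4.17%) of the Agt-zero wells. These 2 markers were thus present in part of the Agt-positive wells and in a minority of the Agt-zero wells.

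Fzd10, a Wnt receptor of the frizzled family, was found in 15 Agt-positive wells (25%) and 27 Agt-zero wells (4.51%). Foxb1, a forkhead transcription factor of the developing diencephalon and brainstem, was found in 10 Agt-positive wells (16.7%), against 1 Agt-zero well (0.167%) and 0 of 1027 wells outside the gate, which allows a share of up to 0.292%. At least 1 of the 4 markers was seen in 43 of the 60 wells. Etnppl was seen together with Igsf1 in 18 wells, with Fzd10 in 12 and with Foxb1 in 9. Igsf1 was seen with Fzd10 in 8 wells and with Foxb1 in 5, and Foxb1 and Fzd10 shared 3 wells. With every well thinned to 1000 transcripts, Etnppl was left in 25% of Agt-positive and 6.2% of Agt-zero wells, Igsf1 in 15% and 1.01%, Fzd10 in 10% and 0.838%, and Foxb1 in 5% and 0%; 2 Agt-zero wells had too few molecules to thin. No marker was in every Agt-positive well, and the markers overlapped in part. At such low counts a well without a transcript need not lack the marker, so different groups of wells were not shown.

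The markers also varied among sorts. Igsf1 was in 9 of 22 Agt-positive wells of the day-60 tdTomato sort, 8 of 14 of the GLAST/EGF sort and 3 of 17 of the Troy-GFP sort. Fzd10 was in 10, 1 and 4 of the same wells, and Etnppl in 14, 9 and 10. These counts are small and no test was made on them.

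**Figure D2:**
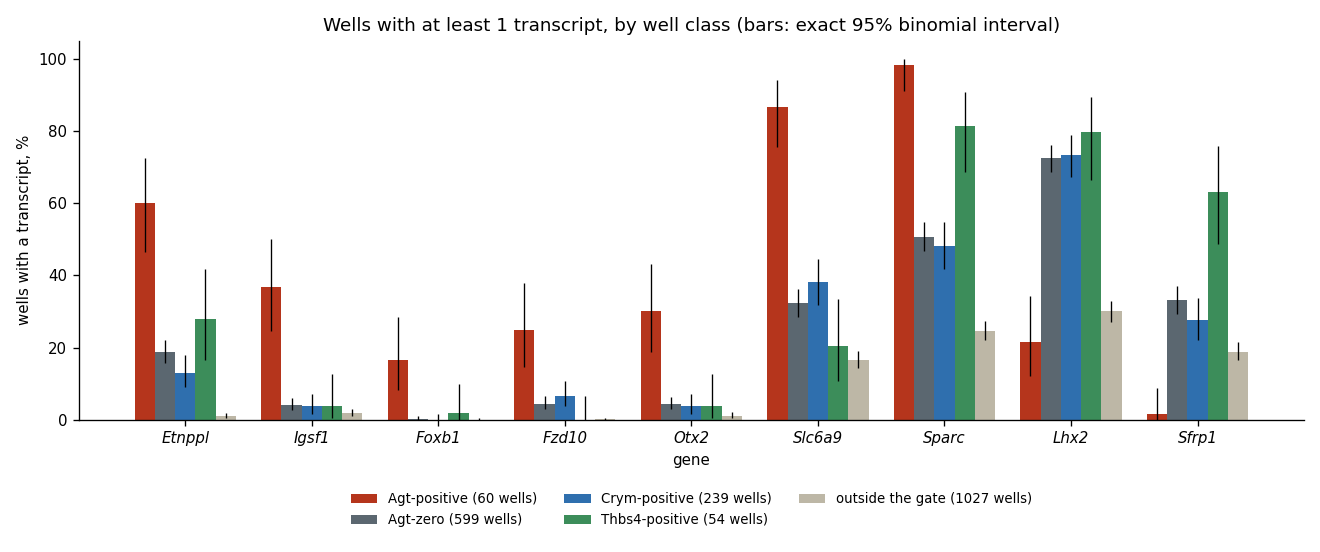
Percent of wells with at least 1 transcript (vertical axis) of 9 genes (horizontal axis) in 5 classes of wells; bars give exact 95% binomial intervals. The Agt-zero class includes 206 wells that are also in the Crym-positive class. Agt-positive wells stand above the other classes for Etnppl at 60.0% and Slc6a9 at 86.7%, and below them for Lhx2 at 21.7% and Sfrp1 at 1.67%.

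For tests, transcripts were summed over the wells of each class within a library, and a library entered with at least 5 wells on both sides. Library 4 of GLAST/EGF, libraries 1 and 3 of Troy-GFP and libraries 1 and 4 of day-60 tdTomato did, with 36 Agt-positive and 236 Agt-zero wells. Values below are counts per 1000000 transcripts (CPM) in that order of libraries. Agt-positive sums held 33870 to 39832 transcripts, so 25.2 to 29.6 CPM is 1 transcript, and Agt-zero sums held 213021 to 314271. Agt stood at 1016, 725, 788, 814 and 1286 CPM in Agt-positive wells and, by the rule, at 0 in Agt-zero wells.

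The largest rise was in Slc6a9, the glial glycine transporter. It stood at 655, 782, 672, 353 and 843 CPM in Agt-positive wells, against 104, 38.8, 34.4, 88.6 and 86.2 CPM in Agt-zero wells. Every Agt-positive library lay above every Agt-zero library. The log2 fold change was 3.31 ± 0.26 (SE; adjusted p = 6.93e-08, limma voom with Benjamini-Hochberg adjustment over 2546 genes, as for all adjusted p-values unless said otherwise). By well, 52 of 60 Agt-positive wells (86.7%) had a transcript, against 193 of 599 Agt-zero wells (32.2%) and 171 of 1027 wells outside the gate (16.7%).

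Sparc, a secreted matricellular glycoprotein made by astrocytes, stood at 1861, 1765, 845, 812 and 1495 CPM in Agt-positive wells, against 210, 413, 264, 280 and 231 CPM in Agt-zero wells. The 2 sets again did not overlap, and the log2 fold change was 2.33 ± 0.19 (adjusted p = 6.93e-08). It was seen in 59 of 60 Agt-positive wells (98.3%) and 304 of 599 Agt-zero wells (50.8%). Slc6a9 or Sparc was seen in all 60 Agt-positive wells and in 393 Agt-zero wells (65.6%), and both together in 51 and 104 wells.

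Slc6a11, a GABA transporter of astrocytes, stood at 837, 462, 445, 277 and 742 CPM in Agt-positive wells, against 156, 155, 142, 125 and 163 CPM in Agt-zero wells, a log2 fold change of 1.95 ± 0.19 (adjusted p = 9.52e-07). Hsd11b1, the enzyme that regenerates active glucocorticoid, stood at 149, 347, 334, 353 and 587 CPM in Agt-positive wells, against 37.6, 93.8, 81.9, 82 and 51.1 CPM in Agt-zero wells, a log2 fold change of 2.47 ± 0.25 (adjusted p = 1.43e-06). Neither gene overlapped between the 2 sides. Slc14a1, a urea transporter, stood at 327, 115, 221, 279 and 459 CPM in Agt-positive wells, against 28.3, 22.6, 95, 75.3 and 44.7 CPM in Agt-zero wells (log2 fold change 2.49 ± 0.31). Lrig1, a membrane inhibitor of ErbB receptors, stood at 415, 288, 193, 227 and 485 CPM, against 37.6, 51.6, 90.4, 72.1 and 89.4 CPM in Agt-zero wells (log2 fold change 2.31 ± 0.27). For these genes too every Agt-positive library was the higher.

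The other named genes that rose were Fry, the mouse counterpart of the fly gene furry, at 2.61, the secreted protein gene Lgi1 at 2.40, the matrix gene Vwa1 at 2.30, the glycogen phosphorylase Pygm at 2.24, the retinaldehyde dehydrogenase Aldh1a1 at 2.20 and the NAD glycohydrolase Cd38 at 2.07, all as log2 fold changes. Their adjusted p-values ran from 1.43e-06 for Vwa1 to 0.000379 for Aldh1a1. In Agt-zero wells Fry stood at 19.6 to 56.8 CPM and Lgi1 at 28.3 to 73.5 CPM. The filter can be met on the Agt-positive sums alone, where few molecules reach it because these sums are shallow. Such genes could enter the test through the side where they are high, so their calls lean on that filter. When both sides were thinned to 1 depth per library, Pygm (1.30, adjusted p = 0.0989) and Aldh1a1 (1.52, adjusted p = 0.0592) were no longer called.

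**Figure D3:**
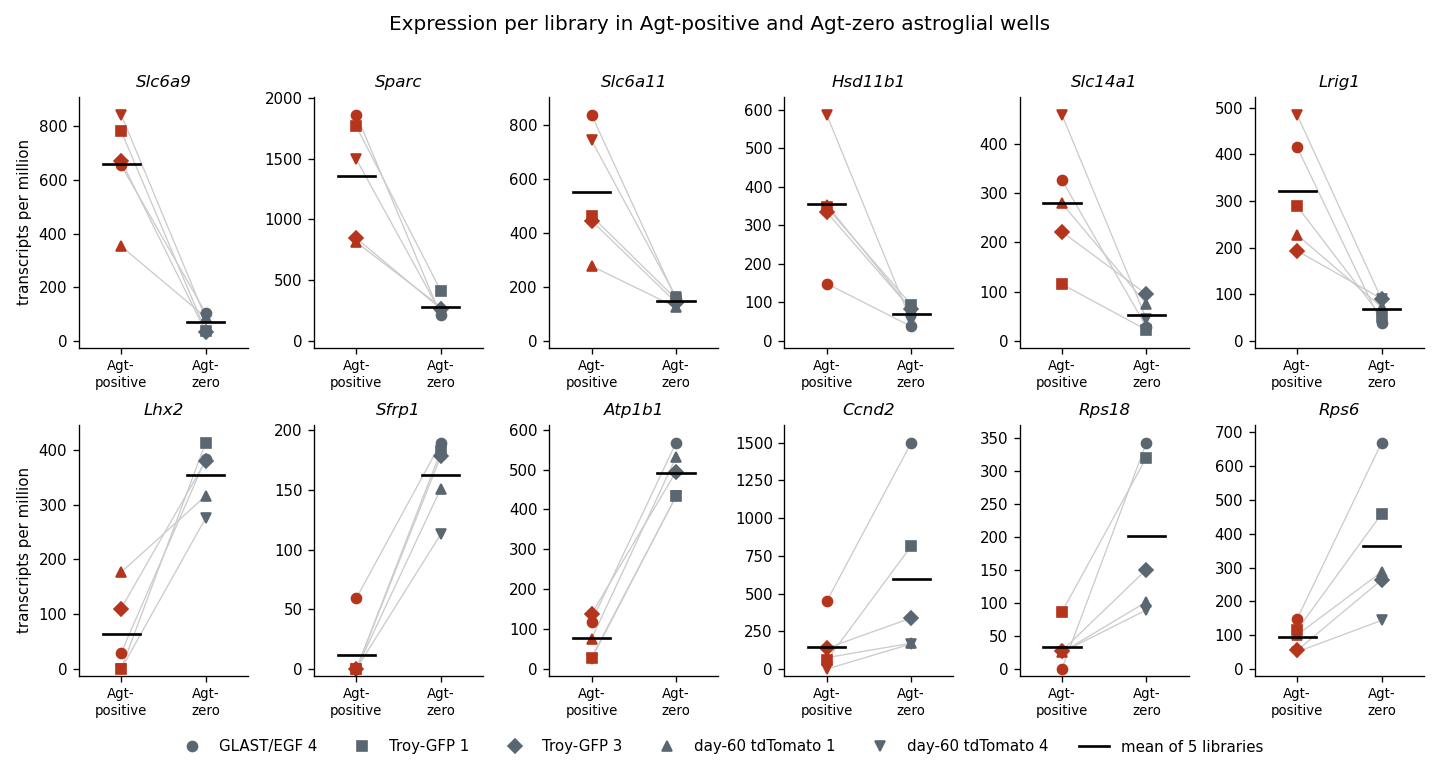
Transcripts per 1000000 (vertical axes, each from 0) of 12 genes in Agt-positive wells (left, red) and Agt-zero wells (right, grey) of the same library, joined by a line; shapes give the library and the black bar is the mean of 5 libraries. Slc6a9 means 661 CPM on the left and 70.5 CPM on the right, and Atp1b1 77.4 CPM on the left and 492 CPM on the right.

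Among genes that fell, Lhx2 encodes a LIM homeodomain factor of the developing telencephalon. It stood at 29.6, 0, 110, 177 and 0 CPM in Agt-positive wells, against 384, 413, 380, 316 and 275 CPM in Agt-zero wells, with no overlap. Its log2 fold change was -2.87 ± 0.56 (adjusted p = 0.0016). By well, 13 of 60 Agt-positive wells (21.7%, exact 95% interval 12.1% to 34.2%) had a transcript, against 434 of 599 Agt-zero wells (72.5%, 68.7% to 76%).

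Sfrp1, a secreted Wnt antagonist, was nearly missing from Agt-positive wells. It stood at 59.3, 0, 0, 0 and 0 CPM there, against 190, 183, 178, 151 and 113 CPM in Agt-zero wells. Both transcripts on the Agt-positive side came from 1 well, so the fitted log2 fold change of -3.03 ± 0.48 (adjusted p = 0.000184) rests on 2 molecules. As a ratio of summed transcripts Sfrp1 was 14.8-fold lower, with an exact 95% counting interval of 4.05-fold to 123-fold. Over all libraries 1 of 60 Agt-positive wells (1.67%) had it, against 198 of 599 Agt-zero wells (33.1%) and 194 of 1027 wells outside the gate (18.9%).

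Atp1b1, a beta subunit of the sodium pump, stood at 119, 28.8, 138, 75.5 and 25.4 CPM in Agt-positive wells, against 567, 433, 495, 531 and 433 CPM in Agt-zero wells (log2 fold change -2.57 ± 0.45, adjusted p = 0.000607). The 2 sides did not overlap. Ccnd2, which encodes cyclin D2, stood at 448, 57.5, 138, 75.5 and 0 CPM in Agt-positive wells, against 1500, 814, 338, 171 and 167 CPM in Agt-zero wells (log2 fold change -1.86 ± 0.35, adjusted p = 0.00122). Ccnd2 was lower on the Agt-positive side of every library, which naming by fold requires, but the sets overlapped. The GLAST/EGF library was the highest on both sides.

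A further 7 named genes that fell carry ribosomal protein symbols, of which Rpl37rt is annotated as a transcribed processed pseudogene, with log2 fold changes of -2.10 for Rps3a1, -2.08 for Rps18, -2 for Rpsa, -1.99 for Rps14, -1.93 for Rps26, -1.76 for Rpl37rt and -1.67 for Rps6. A list of ribosomal protein genes by symbol, chosen after these values were seen, had 71 tested members, of which 39 fell (3.22% of all genes did) and 0 rose, with a median log2 fold change of -1.04 against 0.144 over all 2546 genes tested. Their summed level was 13628, 11938, 7955, 11427 and 8106 CPM in Agt-positive wells, against 46708, 30696, 18822, 18194 and 13037 CPM in Agt-zero wells. The gap was thus widest in the GLAST/EGF library, where Ccnd2 of Agt-zero wells was also highest. Ribosomal protein genes have many near-identical pseudogenes, so the split of reads among them is uncertain. Without the GLAST/EGF library the adjusted p of Rps18, Rps14, Rps26 and Rpl37rt passed 0.05 (0.0685 to 0.097), without Troy-GFP 1 that of Rps14 and Rpl37rt did (0.103 and 0.0571), and without Troy-GFP 3 that of Rps14 did (0.0645).

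**Figure D4:**
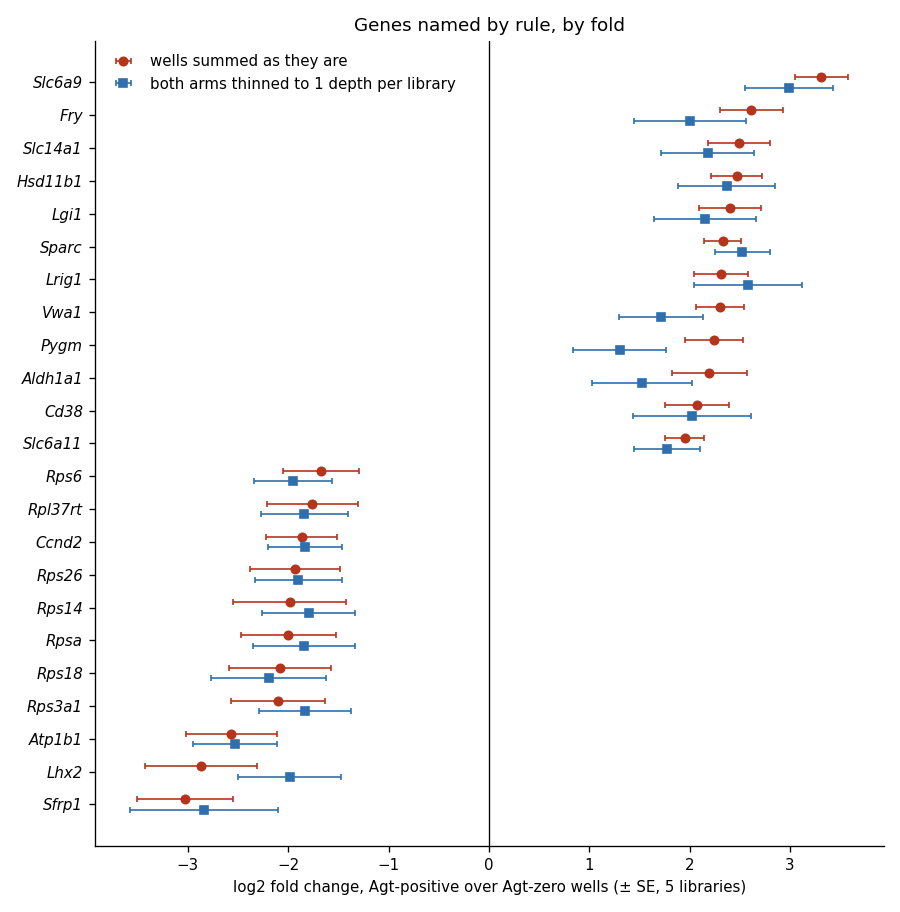
Log2 fold change of Agt-positive over Agt-zero wells with its standard error (horizontal axis) for 23 of the 24 genes named by rule (vertical axis), from the sums as they are (red circles) and from both sides thinned to 1 depth per library (blue squares). Every pair lies on the same side of 0, from 3.31 for Slc6a9 to -3.03 for Sfrp1.

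In all, 329 of 2546 tested genes were called at an adjusted p below 0.05 (12.9%), 247 of them higher (9.7%) and 82 lower (3.22%). The Agt-positive sums were the shallower in every library, so both sides were also thinned to 1 depth per library. Over genes with 15 or more transcripts in all, a looser filter than before, 177 of 5032 then passed (3.52%), 96 higher (1.91%) and 81 lower (1.61%). The median over all genes tested there was 0.0114. All 329 genes were tested there too, all 329 kept their direction and 141 were called again. Of the 24 named genes 22 were called. With the stricter filter of the full sums, 110 of 471 passed at 1 depth (23.4%), 73 higher (15.5%) and 37 lower (7.86%). Only 5 of the 24 named genes were tested there, and these 5 were called. Depth and filter both changed between the full sums and the 177 calls, so the part of depth alone was not measured. Against the Agt-zero wells that were also low in Crym and Thbs4, 179 of 1167 passed (15.3%), 132 higher (11.3%) and 47 lower (4.03%). With the 13 libraries that had 2 or more wells on both sides, 84 of 485 passed (17.3%), 53 higher (10.9%) and 31 lower (6.39%). Without the 2 libraries of the mixed day-60 sort among these, 363 of 1202 passed (30.2%), 222 higher and 141 lower, and 208 of the 224 main calls tested there were called again. Without Troy-GFP 1 the count over all genes was 201.

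Of 35 tested astrocyte genes outside the gate, from a list of 40, 19 rose (9.7% of all genes did) and 1 fell, with a median log2 fold change of 0.43 against 0.144 over all genes tested. With both sides at 1 depth, 14 of 38 rose and 0 fell, with a median of 0.45. The 2 connexin genes of astrocyte gap junctions rose: Gjb6 by 1.70 on the log2 scale, at 761 ± 381 CPM in Agt-positive and 245 ± 55.9 CPM in Agt-zero wells, and Gja1 by 0.73, at 2795 ± 315 and 1808 ± 580 CPM (SD, n = 5 libraries). The potassium channel gene Kcnj10 rose by 1.49, the bicarbonate transporter gene Slc4a4 by 1.49, the lipase gene Pla2g7 by 1.26 and the zinc transporter gene Slc39a12 by 1.09. Atp1b2 (1.01), the pump beta subunit typical of astrocytes, rose while Atp1b1 fell. Sparcl1 (0.96), a relative of Sparc, also rose. The exception was the glutamate receptor gene Grm3, which fell by 0.76 but was not called at 1 depth (adjusted p = 0.266).

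Of the gate genes, given as a description because the rule used them, Aqp4 stood at 1440, 1134, 2697, 3580 and 2151 CPM in Agt-positive wells, against 626, 714, 1119, 1177 and 1129 CPM in Agt-zero wells. The other 4 had no common direction over libraries. Slc1a2 averaged 7761 ± 1922 CPM in Agt-positive wells and 8308 ± 1527 CPM in Agt-zero wells, and Slc1a3 3202 ± 403 and 4075 ± 660 CPM. Aldoc averaged 3220.5 ± 152 CPM and 3125 ± 789 CPM, and Clu 5391 ± 1156 CPM and 4870.3 ± 1935 CPM. Slc1a2 stood at 4846 CPM in Agt-positive and 9596 CPM in Agt-zero wells of day-60 tdTomato 4, whereas Clu stood at 4918 and 1631 CPM in GLAST/EGF 4. Gfap, the intermediate filament gene used to stain reactive astrocytes, had a transcript in 6 of 60 Agt-positive wells (10%) and 66 of 599 Agt-zero wells (11%). Vim, another intermediate filament gene, was in 9 (15%) and 209 (34.9%), and did not pass the test at 1 depth (-2.22, adjusted p = 0.0524).

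Among transporters and enzymes of transmitters and amino acids, 19 of 31 genes were tested, of which 6 rose and 1 fell, beside 9.7% and 3.22% of all genes, with a median log2 fold change of 0.43 against 0.144. Slc6a9 and Slc6a11, described above, were among those that rose. The cystine-glutamate exchanger Slc7a11 rose by 0.80, the GABA-B receptor gene Gabbr1 by 0.84 and the adenosine receptor gene Adora1 by 1.64. Phgdh, the first enzyme of serine synthesis, fell by 0.64. At 1 depth Gabbr1 (adjusted p = 0.141) and Adora1 (adjusted p = 0.137) were not called.

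Of 8 tested genes that pattern the telencephalon, from a list of 18, Lhx2 fell and Nr2f1 rose (0.90, adjusted p = 0.0191, but 0.138 at 1 depth). The median was -0.95 against 0.144 over all genes tested, of which 3.22% fell and 9.7% rose. Nr2e1 (-1.32, adjusted p = 0.0932) and Meis2 (-1.34, adjusted p = 0.122) were not called.

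Genes of the diencephalon, septum and more caudal regions were mostly too rare for the test: 2 of 34 listed genes were tested and 0 were called. Otx2, a homeodomain factor of the forebrain and midbrain, had a transcript in 18 of 60 Agt-positive wells (30%, exact 95% interval 18.8% to 43.2%), against 26 of 599 Agt-zero wells (4.34%, 2.85% to 6.30%) and 12 of 1027 wells outside the gate (1.17%). With both sides at 1 depth its log2 fold change was 1.20 (adjusted p = 0.38). Of the Iroquois factors, Irx1 was in 6 and 4, Irx2 in 3 and 0, Irx3 in 4 and 3 and Irx5 in 3 and 1 of the Agt-positive and Agt-zero wells. Tcf7l2 was in 30 (50%) and 296 (49.4%) of these wells, so it did not differ in this way. Zic1 was in 10 (16.7%) and 45 (7.51%), Zic4 in 3 (5%) and 19 (3.17%) and Zic5 in 0 and 1. Of the 28 listed genes found in the data, 10 had no transcript in the Agt-positive sums and 12 none in the Agt-zero sums. When each well was thinned to 1000 molecules, Otx2 was left in 2 of 60 and 6 of 597 wells, near the level of single molecules. These counts are given as counts, with no test.

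Genes of activated stem cells and progenitors were few among those tested. Of 5 tested members of a list of 18, Ccnd2 and Pcna (-1.39, adjusted p = 0.0475), the sliding clamp of DNA replication, fell, beside 3.22% of all genes. Egfr did not pass (0.15, adjusted p = 0.831) and was in 50% of Agt-positive and 41.1% of Agt-zero wells. Of 21 tested genes of quiescent stem cells, Hes1 rose (1.14, adjusted p = 0.0461, but 0.158 at 1 depth) and 0 fell, beside 9.7% and 3.22% of all genes. Their median was -0.24 against 0.144 over all genes tested. Division genes had 1 tested member and 0 calls.

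Of the Wnt list, 9 of 44 genes were tested, with a median log2 fold change of 0.02 against 0.144 over all genes tested. Of all genes 9.7% rose and 3.22% fell. Sfrp1 and Dkk3 (-1.16, adjusted p = 0.0249), both secreted modulators, fell, and Znrf3, a ligase that removes frizzled receptors, rose (1.28, adjusted p = 0.0255), though it was not called at 1 depth (adjusted p = 0.427). Dkk3 was in 18 of 60 Agt-positive wells (30%) and 469 of 599 Agt-zero wells (78.3%). The Agt-zero class holds Crym-positive wells, which the rule keeps out of the Agt-positive class. Dkk3 was in 226 of 239 Crym-positive wells (94.6%) and 229 of 343 Agt-zero wells low in Crym and Thbs4 (66.8%). Against the latter wells, 3 genes of the Wnt list were tested and 0 were called. The glucocorticoid receptor gene Nr3c1 (1.00) and the cytokine receptor gene Lifr (1.41) rose, and neither was called at 1 depth (adjusted p = 0.478 and 0.141). Of 10 tested phospholipid genes Gpcpd1 rose (0.94), near the 9.7% of all genes that did, and it was not called at 1 depth (adjusted p = 0.74).

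The rest of the renin-angiotensin system gave 0 calls among 3 tested of 22 listed genes. Atp6ap2, the renin receptor, had a log2 fold change of 0.59 (adjusted p = 0.111), the aspartic protease Ctsd 0.47 (adjusted p = 0.195) and the peptidase Lnpep 0.67 (adjusted p = 0.38). Ace, the converting enzyme, was in 0 of 60 Agt-positive wells, which allows a share of up to 5%, and in 18 of 599 Agt-zero wells (3.01%). The receptor gene Agtr1a was in 0 wells of either class. Agtrap, a protein that binds the angiotensin receptor, was in 4 (6.67%) and 124 (20.7%), and the peptidase Nln in 11 (18.3%) and 96 (16.0%) of the Agt-positive and Agt-zero wells. At this depth no other member of the system was shown to move with Agt.

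Of the markers of mature neurons, ependymal cells, oligodendrocyte precursors, microglia, endothelium and choroid plexus, 0 passed the filter for the test on the full sums. At 1 depth with a total of 15 transcripts, 3 choroid plexus markers were tested and 2 fell, Ttr (-2.18, adjusted p = 1.21e-27), a thyroxine carrier, and Enpp2 (-2.85, adjusted p = 4.36e-16), a lysophospholipase; the 1 tested mature neuron marker, the noncoding RNA Meg3, also fell (-3.19, adjusted p = 0.003), against 1.61% of all genes. The oligodendrocyte precursor, microglial and endothelial lists had 2, 1 and 1 tested there, with 0 calls, and the ependymal list 0 tested. Ependymal markers summed to 25.2 to 115 CPM in Agt-positive and 28.3 to 699 CPM in Agt-zero wells. Choroid plexus markers summed to 0, 28.8, 0, 7011 and 178 CPM in Agt-positive wells, against 84.7, 64.7, 69, 31122 and 4384 CPM in Agt-zero wells. Both day-60 libraries were high, and the calls of Ttr and Enpp2 rest mainly on them. With so few pairs, p-values this small rest largely on variance that limma shares over genes, and little on spread between libraries. Endothelial markers reached 868 CPM in the Agt-positive wells of Troy-GFP 1, against 25.2 to 29.6 CPM in the other 4 libraries, and 4.70 to 217 CPM in Agt-zero wells. Oligodendrocyte markers summed to 951, 288, 276, 176 and 458 CPM in Agt-positive wells, against 391, 243, 293, 193 and 160 CPM in Agt-zero wells. Of 2 tested on the full sums 0 were called, beside 12.9% of all genes, with a median log2 fold change of 0.78 against 0.144. Neuroblast markers summed to 1242 to 1878 CPM in Agt-positive and 1217 to 2120 CPM in Agt-zero wells. Of 4 tested, Sox11 (-1.19) and Stmn1 (-1.02) fell and Ncam1, a cell adhesion gene, rose (0.90), beside 3.22% and 9.7% of all genes. Sox11 was not called at 1 depth (adjusted p = 0.267). The part of these cells in the results was not tested.

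Wells near the edge of the rule are described here with no test, for genes already named above. Those with exactly 2 Agt molecules belong to the 60 Agt-positive wells, so their values are not separate from the contrast. Pooled over all libraries, the 22 wells with exactly 2 Agt molecules, just inside, had 443 CPM of Slc6a9, 1299 of Sparc, 330 of Etnppl, 113 of Lhx2 and 0 of Sfrp1. The 66 wells with 1 molecule that were low in Crym and Thbs4, just outside, had 296, 604, 129, 250 and 39 CPM of the same genes. Over all 60 Agt-positive wells they stood at 653, 1672, 367, 60.3 and 7.09 CPM, and over all Agt-zero wells at 127, 347, 61, 358 and 157 CPM. Wells with 1 molecule lay between Agt-positive and Agt-zero wells for each of these 5 genes. Etnppl is a naming marker and the others were named by their fold between these classes, which made a value in between likely. The classes are also unlike: the 66 wells are low in Crym and Thbs4, while Agt-zero wells include 206 Crym-positive and 71 Thbs4-positive wells. No gradient with Agt was tested.

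Values pooled over all libraries of a sort, with no test, include wells of libraries that were too small to enter. In the GLAST/EGF sort, where 7 of the 14 Agt-positive wells are those of the tested library 4, Slc6a9 stood at 783 CPM in 14 Agt-positive wells and 82.8 CPM in 107 Agt-zero wells. In the Prom1/CD24 sort it stood at 814 CPM in 3 Agt-positive wells and 97 CPM in 17 Agt-zero wells. The mixed day-60 sort ran the other way, with 174 CPM of Slc6a9 in 4 Agt-positive wells and 988 CPM in 34 Agt-zero wells. Slc6a11 likewise stood at 0 CPM in those Agt-positive and 645 CPM in those Agt-zero wells, while Sparc stood at 5190 and 1390 CPM. Cells of the olfactory bulb were part of that sort, and their part in these values was not tested.

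Whether the difference between Agt-positive and Agt-zero wells itself varied between sorts was tested between day-60 tdTomato and Troy-GFP libraries. Of 2879 genes, 0 passed the interaction term (0.0%; 204 at an unadjusted p under 0.05), and limma-trend also called 0. Without day-60 tdTomato library 1 or 4 the count was 1 or 4. The interaction for Slc6a9 was -1.53 ± 0.55 on the log2 scale (adjusted p = 0.646) and for Sparc 0.21 ± 0.38 (adjusted p = 0.936). With 2 libraries a sort, a difference of this size could not be shown.

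Agt-positive wells of the day-60 tdTomato sort were also set directly against those of the Troy-GFP sort, with 16 and 13 wells in 2 libraries each. Of 561 genes 0 were called (0.0%; 28 at an unadjusted p under 0.05), and limma-trend also called 0. Leaving out a day-60 library raised the count to 3 (without library 1) or 5 (without library 4). With all 4 libraries of both sorts, at 2 or more wells each, Gria2 (-1.46, adjusted p = 0.0113), an AMPA receptor gene, and Lars2 (-1.37, adjusted p = 0.0134), a mitochondrial tRNA synthetase gene, were lower in day-60 wells. All day-60 libraries ran on flow cell HVJH2BGXX, and with the Troy-GFP libraries of that flow cell alone 0 of 424 genes were called (56 at an unadjusted p under 0.05), so neither gene was called within it. Slc6a9 differed by 0.04 ± 0.44 and Sparc by 0.55 ± 0.49 in that fit, neither called (adjusted p = 0.962 and 0.625).

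Agt-positive wells were next set against Crym-positive wells, the astroglial wells with at least 2 transcripts of Crym, a thyroid hormone binding protein. The same 5 libraries entered, with 36 and 103 wells. The Agt-positive wells are the same as before, and 206 Agt-zero wells are also Crym-positive, so the 2 contrasts share samples and are given side by side only. Of 713 genes 87 were called (12.2%), 56 higher (7.85%) and 31 lower (4.35%). Without GLAST/EGF 4 the count was 130, and without Troy-GFP 3 or day-60 tdTomato 4 it was 46 or 52.

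Slc6a9 stood at 123, 88.4, 57, 80 and 70.2 CPM in Crym-positive wells, below every Agt-positive library (log2 fold change 3.08 ± 0.31, adjusted p = 6.5e-06). Sparc stood at 70.2, 401, 267, 146 and 93.8 CPM there (2.77 ± 0.32, adjusted p = 1.94e-05), and Slc6a11 differed by 2.01 ± 0.27. Gjb6 rose by 1.98, the transport ATPase gene Atp13a4 by 1.93, the progestin receptor family gene Paqr8 by 1.82, Kcnj10 by 1.66 and the dystrophin gene Dmd by 1.54. The rest of the 12 were Psd2, Camk2g, Nnat and Tlcd1, at 1.52 to 1.64.

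Lhx2 stood at 319, 355, 334, 270 and 288 CPM in Crym-positive wells, above every Agt-positive library (-2.69 ± 0.52, adjusted p = 0.00201), and Atp1b1 differed by -2.50 ± 0.35. The log2 fold changes were -1.97 for Dkk3, -1.79 for the cytokine gene Mif, -1.61 for Hlf, a leucine zipper factor gene, and -1.52 for the tubulin gene Tuba1b. Chst2, Rpl23, Pantr1, Rpl3 and Psat1 were also lower, at -1.49 to -1.14.

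Against Thbs4-positive wells, astroglial wells with at least 2 transcripts of the matrix gene Thbs4 and Crym below 2, Troy-GFP 1 and 3 entered, with 13 and 19 wells. Of 555 genes 184 were called (33.2%), 123 higher (22.2%) and 61 lower (11%). Leaving out a library leaves 1 pair and no test. With 2 pairs, the p-values of this contrast rest largely on variance that limma shares over genes, and little on spread between libraries. With the 8 libraries that had 2 or more wells on both sides, 153 of 307 genes were called (49.8%), 88 higher and 65 lower. Slc6a9 stood at 782 and 672 CPM in Agt-positive wells, against 14.1 and 0 CPM in Thbs4-positive wells. With 52 transcripts against 1, the ratio was 79.5 with an exact 95% counting interval of 13.7 to 3201. Of the genes named for this contrast with 1 to 3 transcripts in Thbs4-positive wells, Als2cl was 32.1-fold (5.17 to 1328), Dner 19.1-fold (4.77 to 167) and Atp13a4 14.8-fold (4.58 to 75.9) higher in Agt-positive wells.

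Sfrp1 had 0 transcripts in these Agt-positive wells and 57 in Thbs4-positive wells, which makes it at least 12.4-fold lower, taking 3 transcripts over both libraries as the limit that 0 allows. Lhx2 stood at 0 and 110 CPM in Agt-positive wells, against 669 and 374 CPM in Thbs4-positive wells (-3.52 ± 0.93, adjusted p = 0.00173). Igfbp5, an IGF binding protein gene, stood at 173 and 111 CPM, against 944 and 1276 CPM in Thbs4-positive wells (-2.76 ± 0.64, adjusted p = 0.000259). S100a6, a calcium binding protein gene, stood at 57.6 and 82.8 CPM, against 643 and 658 CPM (-2.91 ± 0.92, adjusted p = 0.00991). All 4 were lower in both Agt-positive libraries, which naming by fold requires.

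Gria2 stood at 1552 and 1345 CPM in Agt-positive wells, against 183 and 241 CPM in Thbs4-positive wells (2.86 ± 0.38, adjusted p = 2.06e-10). S100b, a calcium binding protein gene of mature astrocytes, stood at 404 and 304 CPM, against 42.2 and 53.2 CPM in Thbs4-positive wells (2.79 ± 0.88, adjusted p = 0.00974). Sparc was closer, at 1765 and 845 CPM in Agt-positive wells, against 1118 and 378 CPM in Thbs4-positive wells (0.90 ± 0.30, adjusted p = 0.0151), and the 2 ranges overlapped. Of 29 tested astrocyte genes outside the gate, 18 rose (22.2% of all genes did) and 0 fell, with a median of 0.94 against 0.15 over all genes tested. Further genes named by rule were Trpm3, Ccdc141, Ncam2, Wls, Sema6d and Timp4 among those higher, and Mif, Rps16, Kif3a, Dstn, Nfix, Rps9 and Atp1b1 among those lower.

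**Figure D5:**
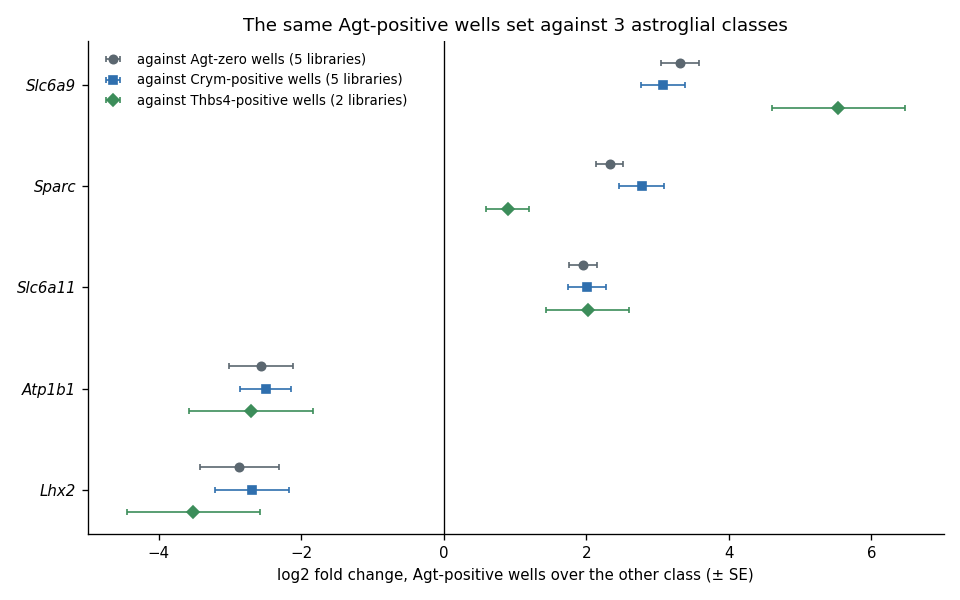
Log2 fold change of the same Agt-positive wells over 3 other classes, with its standard error (horizontal axis), for the 5 of the 24 named genes that were tested against Crym-positive wells (vertical axis). Slc6a9 lies at 3.31 against Agt-zero, 3.08 against Crym-positive and 5.54 against Thbs4-positive wells, where it rests on 1 transcript; the 3 contrasts share the Agt-positive wells.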

How the data were processed

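Per the submitters' processing notes, BWA 0.6.2-r126 and the mm10 build were used. The deposited values are estimated transcripts per gene and well: the values match molecular barcode counts corrected by the authors for barcode collisions, so they are not whole and not normalized. Cells were sorted 1 per well, and no doublet caller was run. The members and gene lists were chosen with earlier results of these data known, and the ribosomal list after its values were seen. An edgeR test had been planned, but the deposited unit is not raw counts, so limma voom was used (limma 3.58.1, R 4.3.3; other steps in python 3.11.15 with scipy 1.17.1).

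Transcripts were summed per class and library, with at least 5 wells per side, and fitted with library as a block (within-library difference), trimmed-mean scaling and Benjamini-Hochberg adjustment at 0.05. Genes needed 15 transcripts in all, and the CPM of 10 transcripts at the median sum in as many sums as the smaller side had. For each comparison the rule named the 12 genes with the highest and the 12 with the lowest log2 fold change among those called with 1 sign in every library, and every called list member, leaving out predicted genes. Genes used by the selection were left out of counts, but those that passed the filter were fitted and entered the adjustment. The tests were tried on simulated data. Shares were compared by exact permutation. Alternatives are listed in the closing section. The Agt promoter is from RefSeq and gene coordinates are from GENCODE. Intervals and floors (3 counts) cover counting error only. Replicate numbers did not pair the samples. Some genes that the rule names are not reported here.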

Additional observations from a re-analysis of the deposited data

Results flagged for a closer look

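Groups of library values were checked for 1 library far from the others, 62 groups in all; chance marks about 1 in 20 groups. Sfrp1 in Agt-positive wells was marked, at 59.3 CPM in GLAST/EGF 4 and at 0 in the other 4 libraries.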

How the results depend on the processing

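The 329 genes called between Agt-positive and Agt-zero wells became 326 with median-of-ratios factors and 277 with library totals. They became 4911 with no filter on low values, 121 with limma-trend, 44 with wells thinned to 1000 transcripts, 101 with Agt of 3 or more, 179 with Agt-zero wells low in Crym and Thbs4, 135 in Troy-GFP libraries alone and 8 in day-60 libraries alone. Alternatives chosen after seeing the data gave 84 with 2 or more wells per side (363 without the mixed day-60 sort), 90 with that and low Crym and Thbs4, 15 with that and thinned wells, 110 at 1 depth, 177 at 1 depth with a total of 15 transcripts, 29 at 1 depth with 2 or more wells, and 72 at 1 depth with low Crym and Thbs4. Leaving out 1 library gave 201 to 287. Against Crym-positive wells the 87 genes became 1379 unfiltered, 15 thinned, 143 with 2 or more wells and 56 at 1 depth, and 46 to 130 without 1 library. Against Thbs4-positive wells the 184 became 98 with limma-trend, 19 thinned and 153 with 2 or more wells. Leaving out a library could not be fitted. Day-60 against Troy-GFP members gave 0 to 5 without 1 library, and 2 with 2 or more wells, with and without X and Y genes, but 0 on flow cell HVJH2BGXX alone. The interaction gave 29 unfiltered, 1 with 2 or more wells and 0 to 4 without 1 library. The cause of these moves was not tested.

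Replicate numbers did not pair the samples (same-number correlations -0.0386 to 0.122). Without the replicate block of libraries the counts were 86 against Agt-zero, 38 against Crym-positive, 114 against Thbs4-positive and 0 for the interaction; with a replicate block by number, day-60 against Troy-GFP gave 9 with 2 or more wells, and the share difference stayed 0.426 points. A minimum of 10 wells per side left no library. Of 421 values of the 24 named genes under alternatives, 351 were called in the same direction, 70 kept it uncalled and 0 reversed. These genes were chosen for keeping their sign in every library, and the alternatives share wells with the main test. That choice made reversals unlikely, so their absence cannot measure how stable the results are. In day-60 tdTomato libraries alone 0 of the 24 were called, and in Troy-GFP libraries alone 10 were. Agt-positive sums of 33870 to 39832 transcripts limit what can be seen of low genes.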
